A study of Mus musculus with 16 samples.

Results

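Intergenic peaks far from any gene start were described in 4 peak lists of single-strand break sequencing (SSB-seq) from mouse embryonic stem cells. A peak on chromosomes 1 to 19 was counted as distal when its midpoint lay outside every gene and more than 50 kb from every annotated transcription start of GENCODE M21 on mm10. Of 103545 peaks in all, 102165 lay on these autosomes, and 1893 were distal: 546 of 28243 in wild type with DMSO, 325 of 15343 in wild type with talazoparib, 594 of 35020 in the knockout with DMSO and 428 of 23559 in the knockout with talazoparib. Peaks of different lists can cover the same place, and the 1893 peaks made up 1422 separate regions. All cells were of strain C57BL/6JRj and kept in 2i medium, free of serum, with LIF. The labels call the cells wild type (WT) or KO and Tdg-depleted. The culture text, which is the same for all libraries, describes a Tdg minigene that 4-hydroxytamoxifen, applied for 2 h at 5 uM ahead of an experiment, excises. Cells received DMSO, or 5 nM talazoparib for 24 h. Each list belongs to 3 immunoprecipitated (IP) libraries and 1 input library of its condition and gives 1 value per peak for the 3 together. No spread between replicates could therefore be computed, and no difference between conditions was tested. All intervals are at 95% and cover counting error only. By the labels, WT libraries ran on other flow cells than KO libraries, so genotype and flow cell cannot be told apart. Where 4 values follow each other, they stand in the order WT DMSO, WT talazoparib, KO DMSO, KO talazoparib.

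SSB-seq marks nicks in purified DNA: DNA polymerase I extends each free 3′ end with digoxigenin-labelled nucleotides, and an antibody to digoxigenin recovers the labelled fragments. Thymine DNA glycosylase, encoded by Tdg, removes oxidised forms of 5-methylcytosine from CpG sites, and base excision repair then opens and reseals the strand. PARP enzymes bind such breaks, and talazoparib blocks their activity and holds them on DNA. DNA far from genes carries distal enhancers of developmental genes, long gene-poor stretches, simple repeats and copies of transposable elements.

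The stretches of sequence below come from distal regions found in every list. Regions with a distal peak in every list numbered 21, and 4 of them had at least 3 input tags in each list. For each of those 4, 200 bases of the plus strand of mm10 around the midpoint of its highest peak are given 5′ to 3′, with CpG sites in capitals.
Near Fam53a, chr5:33535729-33535928: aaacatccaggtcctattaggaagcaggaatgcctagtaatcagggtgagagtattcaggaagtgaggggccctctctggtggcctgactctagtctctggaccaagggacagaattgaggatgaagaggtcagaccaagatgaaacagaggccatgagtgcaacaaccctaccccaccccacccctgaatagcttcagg
Near Adgrb1, chr15:74187384-74187583: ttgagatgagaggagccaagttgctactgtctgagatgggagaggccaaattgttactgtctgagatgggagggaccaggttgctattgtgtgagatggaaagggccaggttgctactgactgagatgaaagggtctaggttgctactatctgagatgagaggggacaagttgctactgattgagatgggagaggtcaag
Near Rybp, chr6:100377980-100378179: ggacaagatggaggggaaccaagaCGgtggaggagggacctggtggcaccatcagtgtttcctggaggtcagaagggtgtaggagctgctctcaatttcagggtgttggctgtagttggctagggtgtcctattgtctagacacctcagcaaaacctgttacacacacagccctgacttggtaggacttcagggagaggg
Near Fam49a, chr12:12177289-12177488: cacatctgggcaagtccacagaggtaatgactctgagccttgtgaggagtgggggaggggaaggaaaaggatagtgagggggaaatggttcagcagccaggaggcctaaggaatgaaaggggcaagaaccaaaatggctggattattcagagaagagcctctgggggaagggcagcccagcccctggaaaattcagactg
These stretches held 0, 0, 1 and 0 CpG sites, and their G+C content was 52.0, 49.0, 54.5 and 54.0%. Of the sequence patterns searched, the stretch near Fam53a held a G-quadruplex pattern and the other 3 held none.

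A second set shows a repeated sequence that differed in frequency between the lists, as described further on. Each is the highest distal peak of its list with the named pattern within the 200 bases shown and at least 3 input tags. They were chosen after the values had been seen. Capitals mark the letters AAGATGGCG or their complement.
KO DMSO, YY1 letters, chr19:9754120-9754319: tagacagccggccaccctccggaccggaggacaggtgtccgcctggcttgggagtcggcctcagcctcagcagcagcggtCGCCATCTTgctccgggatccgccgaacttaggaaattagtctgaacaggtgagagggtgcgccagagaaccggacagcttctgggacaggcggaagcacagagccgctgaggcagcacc
KO talazoparib, YY1 letters, chr4:81149493-81149692: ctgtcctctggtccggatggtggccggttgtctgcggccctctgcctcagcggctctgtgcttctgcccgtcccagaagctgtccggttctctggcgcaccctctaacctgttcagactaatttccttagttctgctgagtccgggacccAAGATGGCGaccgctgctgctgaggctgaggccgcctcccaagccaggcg
The pair share a run of 36 identical bases when one of them is read on the opposite strand, though they lie on different chromosomes.

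Distal peaks were few in every condition and, in the lists as deposited, fewer with talazoparib. In WT they made up 1.93% of autosomal peaks with DMSO (Wilson interval 1.78 to 2.10%) and 2.12% with talazoparib (1.90 to 2.36%). In KO they made up 1.70% with DMSO (1.57 to 1.84%) and 1.82% with talazoparib (1.65 to 2.00%). The DNA that could hold them was 371 Mb, or 15.5% of the 2396 Mb of sequenced autosomal bases. Their density was 1.47, 0.876, 1.60 and 1.15 peaks per Mb. In the rest of the autosomes it was 13.7, 7.42, 17.0 and 11.4 peaks per Mb, which is 9.30, 8.47, 10.6 and 9.90 times as dense. The talazoparib list held 0.595 times as many distal peaks as the DMSO list in WT and 0.721 times as many in KO. For all other autosomal peaks these ratios were 0.542 and 0.672. The KO lists held 1.09 times the distal peaks of WT with DMSO and 1.32 times with talazoparib, against 1.24 and 1.54 times for the other peaks.

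The order of the counts changed with the length of the lists, the input required and the fold over input required. When every list was shortened to its 15544 best-scoring peaks, the distal peaks numbered 196, 325, 173 and 164, so WT talazoparib then had the most. That number is the full length of the WT talazoparib list, which therefore lost no peak. Distal peaks ranked low in score, at median percentiles of 35.7, 30.1, 38.5 and 27.1 of their lists. The cut thus removed them from the other lists only, which by itself favours WT talazoparib in this count. With at least 3 input tags required they numbered 279, 37, 213 and 176. With a fold over input of at least 6 they numbered 161, 271, 400 and 191, so WT talazoparib then exceeded WT DMSO. The IP libraries of a list together held an estimated 87.0, 83.8, 69.2 and 66.4 M tags (M, 1000000), and the inputs 38.1, 24.5, 24.8 and 28.3 M. The part of depth in these counts was not tested.

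Peaks became sparser with distance from gene starts, and at the largest distances the conditions came together. Intergenic peaks up to 5 kb from a start stood at 24.3, 14.3, 29.2 and 22.4 per Mb. Between 50 and 60 kb the densities were 2.25 (exact Poisson interval 1.88 to 2.67), 1.29 (1.01 to 1.62), 2.82 (2.41 to 3.29) and 1.69 (1.37 to 2.05) per Mb. Between 100 and 150 kb they were 0.934 (0.740 to 1.16), 0.839 (0.656 to 1.06), 1.05 (0.845 to 1.29) and 0.887 (0.698 to 1.11), and all 4 intervals overlapped. WT talazoparib was the lowest list at each step up to 150 kb. Between 200 and 300 kb the lists held 13, 13, 10 and 17 peaks, too few to order.

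**Figure D1:**
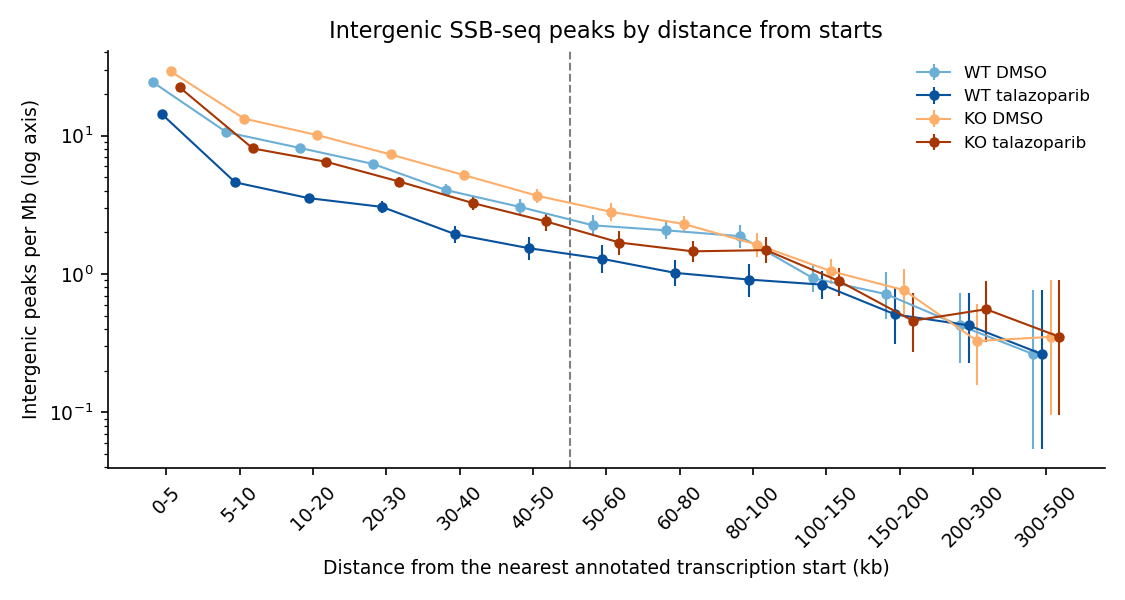
Intergenic peaks per Mb of gene-free sequenced DNA (log axis) by distance from the nearest annotated transcription start in kb; points are the 4 lists, bars exact 95% Poisson intervals, and the dashed line is the 50 kb limit. Density fell from 14.3 to 29.2 per Mb within 5 kb to between 0.839 and 1.05 per Mb at 100 to 150 kb, where the intervals of the lists overlapped.

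The distal peaks lay a median of 74.8, 79.9, 71.1 and 77.9 kb from the nearest start. More than 100 kb separated 123, 107, 133 and 114 of them from any start, which is 22.5, 32.9, 22.4 and 26.6%. More than 200 kb separated 16, 16, 14 and 21. The farthest peak of all lay in WT DMSO at chr6:11473154-11473654, 434 kb from the start of Ndufa4, with 5.64 normalized tags per kb over 1 input tag. The next lay in KO DMSO at chr11:13417792-13418292, 420.4 kb from any start, with 6.94 tags per kb over 0.5 input tags. After it came a peak in WT DMSO at chr1:114849575-114850075, 369.9 kb from any start, with 6.10 tags per kb over 2.5 input tags. The protein-coding start closest to that last peak was that of Cntnap5a, a neuronal adhesion protein, at 835 kb. None of these 3 peaks was tall for its list.

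Across the 50 kb limit itself the values changed little. Peaks 40 to 50 kb from a start numbered 226, 114, 272 and 177 and had medians of 6.66, 6.38, 8.47 and 8.74 tags per kb. Those 50 to 60 kb away numbered 131, 75, 164 and 98 and had medians of 6.78, 5.96, 8.11 and 8.57 tags per kb.

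Distal peaks were short and low, in the IP as in the input. Height was measured as IP tags per 10 M tags and per kb of peak; DNA covered evenly would give 3.78. The median height of distal peaks in WT was 6.78 with DMSO (order-statistic interval 6.66 to 6.90) and 6.20 with talazoparib (5.96 to 6.32). In KO it was 8.52 with DMSO (8.24 to 8.68) and 8.51 with talazoparib (8.28 to 8.74). The middle 50% of peaks ran from 6.20 to 7.79, 5.44 to 7.88, 7.52 to 10.1 and 7.52 to 10.1. The KO medians therefore stood above the WT medians under both treatments. The middle 50% of WT and KO overlapped only from 7.52 to 7.79 with DMSO and from 7.52 to 7.88 with talazoparib. The lowest heights were 4.93, 4.56, 6.00 and 5.88, also higher in KO, whose IP libraries held fewer tags. Before scaling to 10 M, the median was an estimated 32.0, 27.0, 35.5 and 30.5 IP tags per peak. The part of depth in these heights was not tested. All other autosomal peaks had medians of 7.58, 8.05, 9.55 and 11.1. Intergenic peaks within 50 kb of a start had medians of 7.44, 7.40, 9.35 and 10.5. In WT the talazoparib median was below the DMSO median both for distal peaks and for these nearer intergenic peaks. With at least 3 input tags required, the distal medians in WT were 7.58 with DMSO and 10.1 with talazoparib, the opposite order. No listed peak has a fold over input below 4, so this requirement also sets a minimum height. An input tag equals 0.262 normalized tags in WT DMSO and 0.408 in WT talazoparib. At equal peak length that minimum is thus higher in WT talazoparib, and the opposite order cannot be read as a difference in height. The median length was 500 bp in each list, and 64.5, 68.0, 50.3 and 61.2% of distal peaks had exactly that length. For the other peaks the medians were 631, 630, 732 and 646 bp. The distal peaks held 1.01, 0.957, 0.799 and 0.494% of the tags that each list counted.

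The input under distal peaks was thin. The median was 3, 1, 2 and 2.5 input tags per peak, lowest in WT talazoparib, against 3.5, 2, 3 and 4 under the other peaks. Scaled to the depth of each input, this came to 0.347, 0.172, 0.320 and 0.374 times the even level, against 0.417, 0.324, 0.426 and 0.573 times under the other peaks. The input lay below the even level at 544 of 546, 323 of 325, 591 of 594 and 418 of 428 distal peaks (99.6, 99.4, 99.5 and 97.7%), against 96.8, 92.4, 96.0 and 80.5% of the other peaks. No peak of the lists has a fold over input below 4. The smallest input value that the lists give, 0.5 tags, stood at 140 distal peaks of WT talazoparib (43.1%, 37.8 to 48.5%) and at 17, 66 and 16 of the WT DMSO, KO DMSO and KO talazoparib lists (3.11, 11.1 and 3.74%). Among the other peaks it stood at 1.22, 21.9, 6.24 and 1.55%, so WT talazoparib was highest there too. Fold over input had medians of 5.17, 9.79, 6.91 and 5.63; the high value in WT talazoparib stood beside the lowest input and the lowest IP height.

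**Figure D2:**
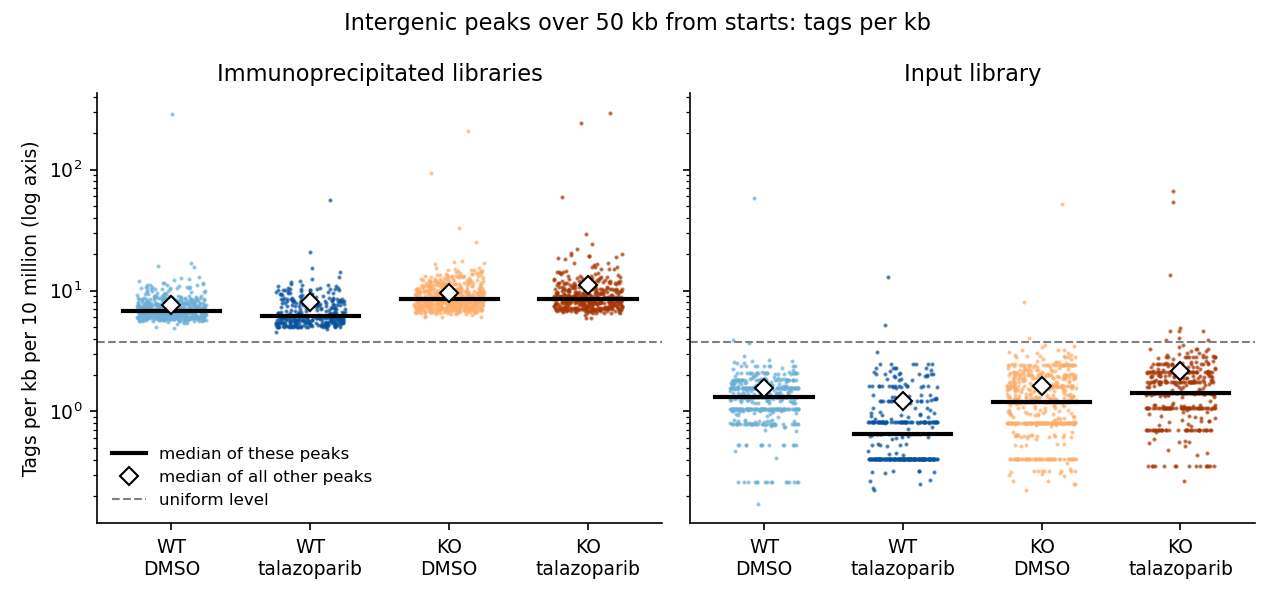
Tags per kb per 10 M tags (log axis) of every distal peak, in the IP libraries (left) and the input (right), by list; black bars are medians, diamonds the medians of all other autosomal peaks and the dashed line the even level of 3.78. The IP medians of 6.20 to 8.52 lay above the even level and the input lay below it at nearly all peaks, with a handful of peaks far above it in both.

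The tallest distal peaks included a few places where the input was high as well. The peak at chr13:110743940-110744440, 346 kb from Plk2, a polo-like kinase gene, reached 289.8 tags per kb over 111 input tags in WT DMSO. The same place reached 209 over 80 input tags in KO DMSO and 294 over 142 input tags in KO talazoparib. It was not in the WT talazoparib list. Of the 300 bp around its WT DMSO midpoint, 78.7% were soft-masked, the lower-case letters by which the assembly marks repeats. A peak at chr14:124801402-124802132, 125 kb from the fibroblast growth factor gene Fgf14, was in KO talazoparib alone, with 243 tags per kb over 112 input tags and a fully masked window. Input above 5 times the even level occurred at 1, 0, 1 and 2 distal peaks of the 4 lists, and the next tallest peaks had lower inputs.

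A region on chromosome 18, 196 kb from the zinc finger gene Zfp608, was tall and held little repeat sequence. It reached 56.5 tags per kb over 20 input tags in WT talazoparib, 93.1 over 4 in KO DMSO and 59.1 over 24 in KO talazoparib, and had no peak in WT DMSO. Its 300 bp window was 57.7 to 58.0% G+C and 8.67% soft-masked. The fold over input was 36.1 in KO DMSO against 4.34 and 4.36 in the talazoparib lists, and the exact interval of the 4 input tags runs from 1.09 to 10.2. The tallest peaks of WT DMSO also included one at chr5:112031757-112032393, 219 kb from the crystallin gene Cryba4, with 15.9 tags per kb. Those of WT talazoparib included one at chr1:14643622-14644122, 111 kb from the transcription factor gene Msc, with 15.3 tags per kb over 3 input tags and no peak in another list.

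Most distal peaks were found in 1 list and not in the others. Any overlap of at least 1 bp was counted, and the percent of all autosomal peaks that met the same condition is given beside each. In WT DMSO, 79 of 546 distal peaks overlapped a WT talazoparib peak (14.5%, 11.8 to 17.7%; all peaks 28.2%). In WT talazoparib, 80 of 325 overlapped a WT DMSO peak (24.6%, 20.2 to 29.6%; all peaks 52.2%). In KO DMSO, 143 of 594 overlapped a KO talazoparib peak (24.1%, 20.8 to 27.7%; all peaks 39.1%). In KO talazoparib, 145 of 428 overlapped a KO DMSO peak (33.9%, 29.6 to 38.5%; all peaks 58.8%). Sharing between treatments was thus lower for distal peaks than for all peaks in each list. It was higher in KO than in WT, for distal peaks as for all peaks. With lists of equal length the distal shares were 24.0, 14.5, 25.4 and 27.4%, so the DMSO lists were nearly level. With at least 3 input tags required they were 5.73, 43.2, 34.3 and 42.0%, and WT talazoparib was no longer below KO talazoparib.

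Between genotypes, too, sharing was lower for distal peaks than for all peaks. Of WT DMSO distal peaks, 29.9% overlapped a KO DMSO peak (all peaks 51.8%) and 20.7% a KO talazoparib peak (all peaks 39.7%). Of WT talazoparib distal peaks, 17.2% overlapped a KO DMSO peak (all peaks 60.4%) and 19.4% a KO talazoparib peak (all peaks 50.0%). Of KO DMSO distal peaks, 26.9% overlapped a WT DMSO peak (all peaks 41.2%) and 9.09% a WT talazoparib peak (all peaks 26.1%). Of KO talazoparib distal peaks, 26.4% overlapped a WT DMSO peak (all peaks 47.5%) and 14.0% a WT talazoparib peak (all peaks 32.4%). WT DMSO distal peaks overlapped the KO DMSO list more often than the talazoparib list of their own genotype, which is also the shortest list.

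Peaks with no counterpart in any other list made up 55.9% of distal peaks (all peaks 38.3%), 61.8% (28.0%), 59.6% (42.8%) and 53.0% (30.3%) in the 4 lists. Peaks with a counterpart in all 3 other lists made up 3.85% (all peaks 19.2%), 6.46% (35.1%), 3.37% (15.7%) and 4.91% (23.1%). When overlapping peaks were joined, 1087 of 1422 regions with a distal peak (76.4%) came from 1 list, 223 from 2, 90 from 3 and 22 (1.55%) from all 4. Of all 60228 autosomal regions, 61.8% came from 1 list and 9.36% from all 4. Of the regions found in exactly 2 lists, 74 joined WT DMSO and KO DMSO (5.20% of distal regions against 6.22% of all regions). Another 55 joined KO DMSO and KO talazoparib (3.87% against 5.27%), and 39 joined WT DMSO and WT talazoparib (2.74% against 1.13%). Both talazoparib lists without a DMSO peak were joined by 16 regions (1.13% against 0.797%).

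**Figure D3:**
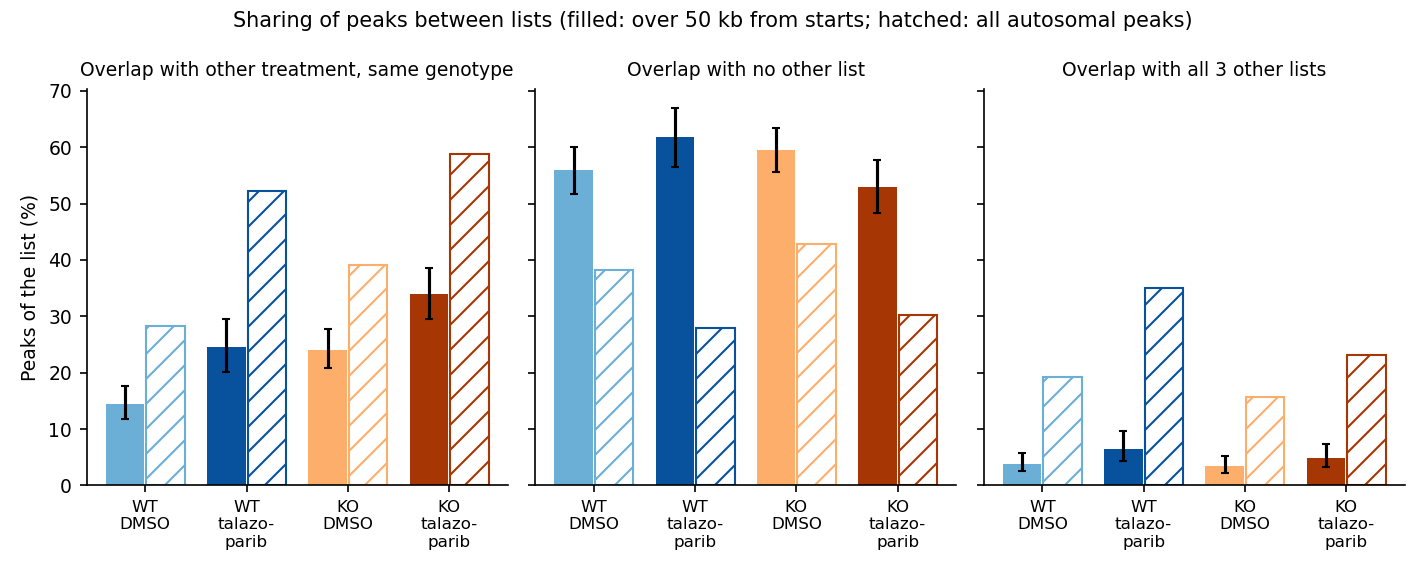
Percent of peaks of each list that overlap a peak of the other treatment of the same genotype, of no other list, or of all 3 other lists; filled bars are distal peaks with 95% Wilson intervals and hatched bars all autosomal peaks. Distal peaks overlapped the other treatment in 14.5 to 33.9% of cases and were alone in 53.0 to 61.8%.

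Height and sharing went together. Distal peaks of each list were divided into 4 equal groups by tags per kb. In KO talazoparib the share that overlapped a KO DMSO peak was 11.2% in the lowest group, then 21.5, 32.7 and 70.1%. In KO DMSO it was 9.40, 11.5, 20.9 and 54.4%, and in WT DMSO 5.84, 7.35, 15.4 and 29.2%. In WT talazoparib it was 12.2% and 12.3% in the lower groups and 37.0% in both upper ones. Peaks in 1 list alone had median heights of 6.44, 5.84, 7.88 and 7.95 tags per kb and 2.5, 0.5, 1.5 and 2 input tags. Those with a counterpart in every list had medians of 8.47, 7.05, 12.4 and 11.2 tags per kb and 7, 1.5, 5.5 and 6 input tags.

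**Figure D4:**
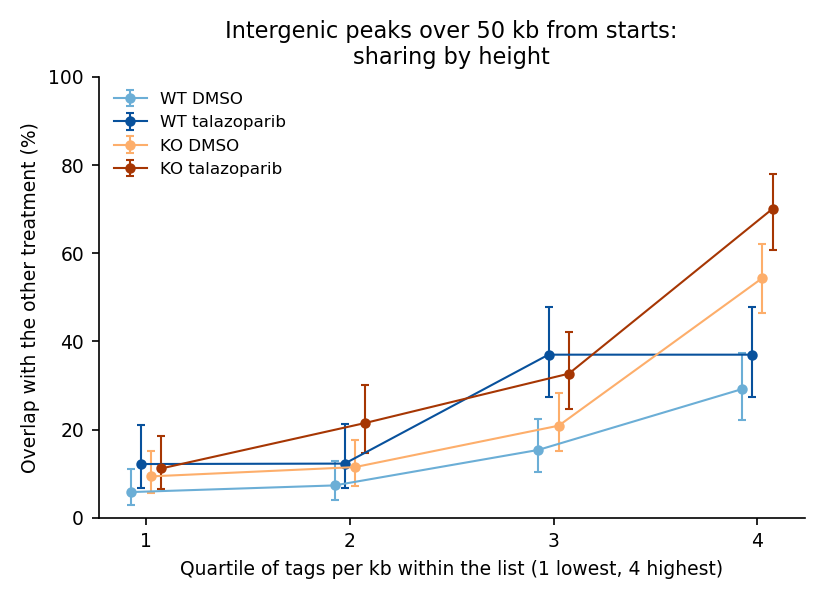
Percent of distal peaks that overlap a peak of the other treatment of the same genotype, by quartile of tags per kb within the list; bars are 95% Wilson intervals. The share rose from 5.84 to 12.2% in the lowest group to 29.2 to 70.1% in the highest.

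The 4 regions whose sequences opened the account were 1695 to 4764 bp long after overlapping peaks of the lists had been joined. The region near Fam53a, chr5:33534028-33538133, lay 93.1 kb from the nearest start and had 11.5, 8.69, 11.9 and 22.2 tags per kb over 15, 3, 24.5 and 15 input tags. KO talazoparib was highest there per kb, while the KO DMSO peak held more normalized tags (45.8 against 29.1). The region at chr15:74186428-74188426, 329 kb from the adhesion receptor gene Adgrb1, had 11.2, 7.90, 16.5 and 15.1 tags per kb over 11.5, 4.5, 6.5 and 11 input tags. Both KO lists were above both WT lists. The region at chr6:100376576-100381340, 90.6 kb from Rybp, which encodes a subunit of polycomb repressive complex 1, had 11.1, 7.61, 15.1 and 9.42 tags per kb over 17.5, 3.5, 11 and 22.5 input tags. KO DMSO was highest. The region at chr12:12176474-12178169, 84.8 kb from Fam49a, had 8.44, 6.34, 14.2 and 10.9 tags per kb over 9, 3, 8 and 5 input tags. WT talazoparib was the lowest list per kb in all 4 regions. By normalized tags per peak, KO talazoparib was lowest near Fam49a (9.11 against 9.66 in WT talazoparib).

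Distal peaks were richer in G+C and CpG than the eligible DNA at large. Over the 300 bp about each midpoint the median G+C content was 49.3, 47.7, 50.3 and 50.3%, against 38.7% over 1236797 windows that tiled the same eligible DNA. In WT DMSO, intergenic peaks within 5 kb of a start had a median of 54.7% and those 40 to 50 kb away 49.0%; in WT talazoparib the latter had 47.0%. CpG sites numbered a median of 1.00, 0.667, 1.33 and 1.33 per 100 bp, against 0.333 in the tiled windows. Soft-masked repeats covered a median of 16.5, 71.3, 13.0 and 19.3% of the window, against 27.0% in the tiled windows. WT talazoparib was the list with most repeat sequence by a wide margin.

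Runs of at least 6 CA units, searched on both strands, were more frequent than in the tiled windows in the distal peaks of 3 lists. In WT they were in 88 of 546 windows with DMSO (16.1%, 13.3 to 19.4%) and in 124 of 325 with talazoparib (38.2%, 33.0 to 43.5%). In KO they were in 19 of 594 with DMSO (3.20%, 2.06 to 4.94%) and in 46 of 428 with talazoparib (10.7%, 8.15 to 14.0%). The tiled windows held such a run in 4.08% of cases. Intergenic peaks within 50 kb held one in 6.58, 13.7, 2.72 and 4.67%, in the same order of lists. In both genotypes the share was higher with talazoparib than with DMSO, and under both treatments it was higher in WT than in KO. The median longest run in these windows was 11, 11, 13 and 12 units. None of the distal peaks with a counterpart in every list held a run: 0 of 21, 0 of 21, 0 of 20 and 0 of 21, which allow a share of up to 14.3%, or 15.0% with 20 peaks. These peaks largely cover the same places, so the zeros are not separate observations. In KO DMSO and KO talazoparib the limits lie above the 3.20 and 10.7% of all distal peaks.

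CA runs in WT talazoparib were not confined to peaks with the thinnest input. Among distal peaks of that list with 0.5 input tags, 24.3% held a run; with 1 to 2.5 tags 45.3% did, and with 3 or more tags 23 of 37 did (62.2%, 46.1 to 75.9%). In WT DMSO the share with 3 or more input tags was 17.2%, in KO DMSO 3.29% and in KO talazoparib 9.09%. Height in WT talazoparib was a median of 7.28 tags per kb (6.56 to 7.88) with a run and 5.84 (5.72 to 5.96) without. In the other lists the medians with and without a run were 6.96 and 6.67 in WT DMSO, 8.38 and 8.54 in KO DMSO and 8.17 and 8.58 in KO talazoparib. Beyond 100 kb from starts the share of distal peaks with a run was 20.3, 49.5, 4.51 and 18.4%, against 14.9, 32.6, 2.82 and 7.96% between 50 and 100 kb.

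Sharing of CA-run peaks between treatments differed from list to list. In WT DMSO 33.0% of them (24.0 to 43.3%) overlapped a WT talazoparib peak, against 10.9% (8.38 to 14.1%) of distal peaks without a run. In WT talazoparib 23.4% overlapped a WT DMSO peak, against 25.4% without a run. In KO DMSO 36.8% of distal peaks with a run (7 of 19, 19.1 to 59.0%) overlapped a KO talazoparib peak, against 23.7% without. In KO talazoparib the shares were 15.2% (7.57 to 28.2%) with a run and 36.1% (31.5 to 41.1%) without. Runs of at least 6 GA units, looked for after the CA result, were in 15, 36, 5 and 5 distal windows. These were 2.75, 11.1, 0.842 and 1.17%, against 2.00% of tiled windows. Intergenic peaks within 50 kb held such a run in 1.63, 3.63, 0.992 and 1.52%. The share was thus highest in WT talazoparib in both sets of peaks, and both KO lists lay below the tiled windows. The sources used here do not say how reads in such repeats were placed in the genome, and the part of read placement and input depth in these shares was not tested.

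**Figure D5:**
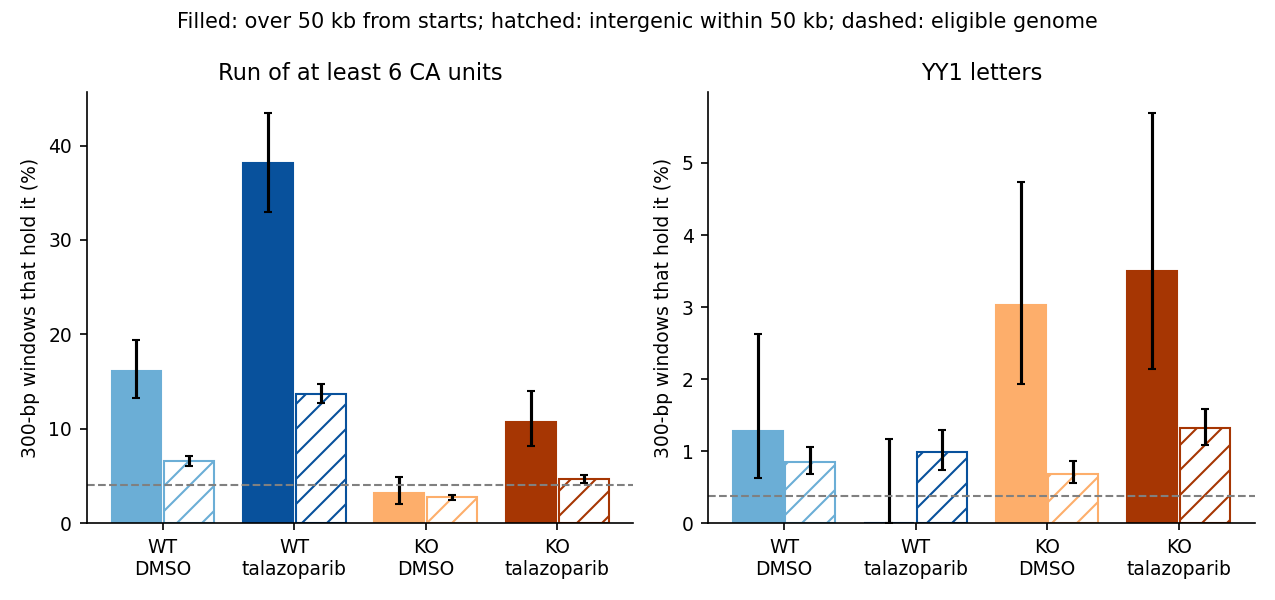
Percent of 300 bp windows with a run of at least 6 CA units (left) or the letters AAGATGGCG (right), either strand, by list; filled bars are distal peaks, hatched bars intergenic peaks within 50 kb, error bars 95% Wilson intervals and dashed lines the tiled eligible genome. CA runs reached 38.2% in WT talazoparib against 4.08% in the tiled genome, and the AAGATGGCG share was highest in the KO lists at 3.03 and 3.50%.

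The letters AAGATGGCG, which match the core bound by the zinc finger protein YY1, showed another order. They were in 7, 0, 18 and 15 distal windows, or 1.28, 0, 3.03 and 3.50%, against 0.372% of tiled windows. The 0 of 325 in WT talazoparib allow a share of up to 0.923% (3 counts of the total). The 40 peaks fell in 39 regions, of which 2 had a peak in more than 1 list. In the KO lists the windows with these letters were a median of 63.0 and 62.7% G+C, held 5.33 and 6.00 CpG sites per 100 bp and were 100% soft-masked. Of 36 such regions outside chromosome 18, 31 shared at least 1 stretch of 20 identical bases with another on either strand. The pair printed above shows the likeness. Whether tags of one copy were counted at another was not tested.

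The other patterns are given beside their share of tiled windows. The octamer ATGCAAAT, bound by OCT4, was in 3.66, 2.77, 4.38 and 2.80% of distal windows against 3.34% of tiled windows. TCAAGGTCA, the ESRRB site, was in 1.47, 0.923, 1.68 and 0.935% against 0.455%. GGGNGTGG, which KLF factors bind, was in 14.3, 9.23, 18.7 and 19.4% against 5.43%. AGGGGGCGC, from the core of the CTCF site, was in 0.733, 0.615, 0.673 and 0.935% against 0.0187%, which is 4, 2, 4 and 4 peaks. The G-quadruplex pattern, 4 runs of at least 3 G with gaps of 1 to 7 bases, was in 6.78, 5.23, 9.43 and 11.7% against 4.60%. A pair of adjacent TTAGGG units was in 0.183, 0.308, 0.505 and 0.935% against 0.0108%. KLF letters, CTCF letters and G-quadruplex patterns are rich in G, as the distal peaks are, and the tiled windows were not matched for base content. All other autosomal peaks held KLF letters in 18.7, 18.8, 19.3 and 21.3% and G-quadruplex patterns in 15.4, 19.2, 15.7 and 18.3%. Distal peaks thus held G-quadruplex patterns less often than the other peaks in every list, and KLF letters less often in both WT lists. The distal intervals for KLF letters in KO, 15.8 to 22.0% with DMSO and 15.9 to 23.4% with talazoparib, hold the share of the other peaks. CTCF letters were in 1.23, 1.21, 1.14 and 1.21% of the other peaks, which lies within the distal interval in every list. The octamer was in 1.68, 1.48, 1.84 and 1.91% of the other peaks, which lies below the distal interval in the DMSO lists only. TTAGGG pairs were in 0.0578, 0.0866, 0.0668 and 0.143% of the other peaks, below the distal interval in the KO lists only. They rest on 1, 1, 3 and 4 distal peaks. ESRRB letters were in 8, 3, 10 and 4 distal peaks. The shares of the other peaks, 1.11, 0.772, 1.21 and 1.04%, lie within the distal interval in every list.

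The nearest protein-coding start placed distal regions beside genes of known roles, as position only. Genes of the naive pluripotency network, 34 of them annotated, were nearest to 26 of the 1422 regions (1.83%, 1.25 to 2.67%), while 0.644% of eligible DNA has such a gene nearest. Tbx3, a T-box factor of that network, had 9 regions 62.5 to 315 kb from its start, with 3, 2, 4 and 2 peaks in the 4 lists. The zinc finger gene Sall1 had 5, and Sall4, Tfcp2l1 and Fbxo15 had 2 each. Developmental regulators silenced by polycomb were nearest to 33 regions (2.32%, 1.66 to 3.24%) against 2.66% of eligible DNA, with 5 at Sox9 and 3 each at Irx4 and Tshz1. Neural adhesion and guidance genes, which sit in wide gene-poor domains, were nearest to 35 regions (2.46%, 1.78 to 3.40%) against 10.1% of eligible DNA. Among them Cdh9, Robo2 and Tenm2 had 3 regions each. By list they were nearest to 10, 13, 11 and 11 distal peaks. These were 1.83, 4.00, 1.85 and 2.57% of distal peaks, highest in WT talazoparib, on counts too small to order the lists firmly. Extraembryonic endoderm genes had 1 region, at Gata6 (0.0703% against 0.118% of eligible DNA). Chemosensory receptor genes had 3, of which 2 were at Olfr1402 (0.211% against 0.223%).

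Distal regions were spread over 775 gene-free intervals, and 516 of these held 1 region. At least 5 regions lay in each of 55 intervals. The interval with most, 18, ran from Tfap2c, which encodes the transcription factor AP-2 gamma, to Gm22773 on chromosome 2 (chr2:172558623-172864263, 0.306 Mb) and held 8, 4, 10 and 6 distal peaks and 1 region found in all 4 lists. The next, chr11:114448861-114664607, held 16 regions with 7, 4, 7 and 6 peaks; its nearest protein-coding start was that of the ribosomal protein gene Rpl38. The interval after Ajap1 on chromosome 4 (chr4:153482812-153876383) held 15 regions with 5, 4, 5 and 6 peaks. The interval between Disc1 and Sipa1l2 (chr8:125261859-125418062) also held 15, with 9, 3, 6 and 2 peaks. The interval chr2:178487367-179020118 beside the cadherin gene Cdh26 held 12, with 4, 4, 6 and 5 peaks. WT talazoparib had the fewest peaks, alone or level with another list, in all of these intervals except the one between Disc1 and Sipa1l2, where KO talazoparib had fewer.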

How the data were processed

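SSB-seq peak lists of mouse embryonic stem cells were analysed, 1 per condition, each assigned by the labels to 3 IP libraries and 1 input. Bowtie2 2.3.4.2, Picard 2.9.2, R 3.6, HOMER 4.11 and mm10 are named in the submitters' processing notes, without their roles; HOMER's findPeaks is named by the file headers. The deposited Normalized Tag Count is a signal in IP tags per 10 M, per the file headers; Control Tags are a signal in input tags, and Total Tags the IP signal scaled by the authors to the input. The fold over input is the authors' ratio of the latter pair: recomputed, it agreed within 0.01 in relative terms at 100.0% of peaks in each list. The deposited findPeaks score served only to rank peaks within a list. The other deposited columns used were positions, taken as given, since the files do not say if their first base is 0 or 1.

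Input totals were computed from scaled and normalized tags, IP totals from the step of 0.5 tags between low values, on which 93.1% of these lay in WT talazoparib and 100.0% in the other lists. Distances used all gene types of GENCODE M21. Sequences and soft-masking came from RefSeq's GRCm38 assembly, whose chromosome lengths hold all peaks. Joining, overlap and distance steps were tested on simulated data. Python 3.11.15, NumPy 2.4.6, pandas 2.3.3, SciPy 1.17.1 and matplotlib 3.10.9 were used. Named regions were the 3 tallest distal peaks per list with at least 3 Control Tags, the regions with a distal peak and that input in all 4 lists (at most 6), the 3 farthest peaks, the 5 gene-free intervals with most regions and at most 5 genes per gene list. Sequences on chromosome 18 were not used, and a few of the tallest peaks are not reported here. The members and lists were chosen with earlier results of these data known. Alternatives changed the distance, gene types, input minimum, list length, fold and overlap. Peaks outside chromosomes 1 to 19 were left out.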

Additional observations from a re-analysis of the deposited data

How the results depend on the processing

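Values are in the order WT DMSO, WT talazoparib, KO DMSO, KO talazoparib. Of 100 values recomputed under 7 settings, 48 stayed within 1.5 times the count or within the interval of the value reported, and 52 moved; except where the setting itself removes or adds peaks, the cause was not tested. Requiring 100 kb left 123, 107, 133 and 114 distal peaks and gave an overlap with the other treatment of 18.7% in WT DMSO. Protein-coding genes alone gave 2294, 1226, 2710 and 1797 peaks, with overlaps of 30.3% in WT talazoparib and 41.2% in KO talazoparib. Requiring at least 3 Control Tags raises Control Tags and the lowest possible height by construction. It left 279, 37, 213 and 176 peaks with median tags per kb of 7.58, 10.1, 10.4 and 10.3. Median Control Tags were 3.5, 3.5, 3.5 and 4 and overlaps 5.73, 43.2, 34.3 and 42.0%. Lists of equal length left 196 peaks in WT DMSO, 173 in KO DMSO and 164 in KO talazoparib, with tags per kb of 8.11, 10.5 and 10.4 and Control Tags of 3.5, 3 and 3.5. Overlaps were then 24.0, 14.5, 25.4 and 27.4% in the 4 lists. A fold of at least 6 left 161, 271, 400 and 191 peaks. Tags per kb were then 5.84, 7.95 and 7.98 outside WT DMSO, Control Tags 2, 0.5, 1.5 and 1.5 and overlaps 10.6, 6.27, 8.00 and 17.3%. Counts and values were the same when the whole peak had to lie outside genes, and no overlap moved when 50% of the shorter peak had to be covered. No paired analysis was possible because each list gives 1 value for its 3 IP libraries together; for the same reason no library could be left out in turn. Fewer than 3 Control Tags lay under 48.9, 88.6, 64.1 and 58.9% of distal peaks, whose fold over input is therefore imprecise.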
